A study of Mus musculus with 39 samples.

Results

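The genes described here are 5 members of the sphingosine 1-phosphate (S1P) pathway measured in the mouse lung: the kinases Sphk1 and Sphk2, the lyase Sgpl1, the phosphatase Sgpp1 and the receptor S1pr1. They were chosen by gene symbol in the platform's probe annotation, with results of these same arrays known, and are 5 of the 16887 gene symbols on the array, each with 1 of the 20868 gene probes. All 5 probes were among the 17560 that passed the filter on dim signals. Because the members were chosen with the smoke and break comparisons in view, their own differences are given as descriptions with intervals. Where an adjusted p of a member is given, or whether it passed the threshold, that too is a description. It is not an independent test, since the choice was made with results of these same arrays known.

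S1P is a lipid messenger made inside cells by phosphorylation of sphingosine, the base released when ceramide is broken down. It is removed either by dephosphorylation back to sphingosine or by irreversible cleavage by the lyase, and once exported it acts on a family of G protein-coupled receptors. In the lung and its vessels S1P is known for its part in endothelial barrier function and in the movement of lymphocytes out of tissues.

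Lungs of male C57BL/6 × CBA F1 hybrid mice, all labelled as aged 8 to 10 weeks, were compared after nose-only exposure to mainstream tobacco smoke (MTS). Smoke groups received 2 cigarettes per day on 5 days per week for 6 or 12 weeks, and sham groups were held in the same restrainers without smoke. The other groups had the same 6 or 12 weeks of smoke or restraint and then a break of 6 weeks. RNA from part of 1 lung per array (Cy5) was hybridised against a universal mouse reference RNA (Cy3), and a level is the log2 ratio of lung over reference, so that levels of different genes cannot be set against each other. The 39 arrays fell into 8 groups: 6 week smoke, 6 week sham, 12 week smoke, 12 week sham, 6 week smoke and break, 6 week break sham, 12 week smoke and break, and 12 week break sham. There were 5 arrays in each group except 12 week smoke, which had 4. The time label of 3 h after exposure was the same on all arrays, those of the break groups included. By the study's methods, 8 to 10 weeks was the age of the mice put into exposure, and age at sampling was not labelled. Between durations, and between groups with and without a break, age at sampling differed too and cannot be told apart from them. In whole lung tissue, a change in the number of cells of a type and a change in RNA per cell cannot be told apart.

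Arrays differed in brightness, with a median Cy5 signal of 264.5 on the dimmest and 1512 on the brightest, and between 48.4% and 94.6% of its probes were above the negative control threshold. Cyp1a1, the cytochrome induced by tobacco smoke, lay between 5.07 and 8.06 in the 9 arrays of the smoke groups and between 0.45 and 2.81 in 29 of the other arrays. The array labelled 6 week sham replicate 2 went against its label in these cytochromes, with Cyp1a1 at 6.46 and Cyp1b1 at 2.00, both inside the ranges of the smoke arrays. Its mean over the macrophage markers described below did not, and lay below that of every 6 week smoke array. It was kept as labelled, and the 6 week smoke differences of the members and of the named list genes are given with and without it. Those of the marker lists are given only with it. Of 8 markers of alveolar type II cells, 7 or 8 were above the threshold on every array, and the mean log2 ratio of the list lay between 2.77 and 4.42.

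The probes of the members differed in signal over background. That of Sphk1 was bright, with a Cy5 signal of 3988 to 28168 that was 24.4 to 109.2 times the local background, and it was above the threshold on 39 of 39 arrays. Sphk2 was above the threshold on 38 arrays, S1pr1 on 34 and Sgpp1 on 32. Sgpl1 was near the limit of measurement, with a median signal of 1.71 times background, and was above the threshold on 22 arrays. The scanner software had marked none of the 39 Sphk1 spots, against 15 for Sphk2, 18 for Sgpp1, 30 for S1pr1 and 34 for Sgpl1. The residual SD was 0.17 for Sphk1 and 0.50 for Sgpl1, with a median of 0.25 over all probes tested.

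Sphk1, the kinase isoform that is induced by growth factors and cytokines, varied most with the groups. The group accounted for 79.9% of its variance over the arrays and the run of exposure dates for 3.38%. For Sphk2 the group accounted for 8.49%, for Sgpp1 7.15%, for Sgpl1 22.1% and for S1pr1 24.8%. Group and run terms take up part of the variance of any probe by chance, and that part was not estimated here. The shares are thus descriptions, and those of Sphk2, Sgpp1, Sgpl1 and S1pr1 are not read as group effects. Sphk1 was itself chosen with its group differences known. Across the 9 smoke arrays Sphk1 ranged from 1.05 to 1.58, across the 10 smoke and break arrays from 0.33 to 0.80, and across 19 sham and break sham arrays from 0.53 to 1.10. The array labelled 6 week sham replicate 2 stood at 1.62, the highest Sphk1 value of the 39.

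After 12 weeks of smoke, Sphk1 was higher than in sham. Its log2 ratios were 1.37, 1.58, 1.51 and 1.53 in 12 week smoke, against 0.63, 1.10, 0.93, 0.86 and 0.96 in 12 week sham. The groups did not overlap: all 4 smoke arrays lay above all 5 sham arrays. They averaged 1.498 ± 0.09 over the 4 smoke arrays and 0.90 ± 0.17 over the 5 sham arrays (mean ± SD). The fitted difference was 0.61 (SE 0.12, 95% interval 0.37 to 0.86), a 1.53-fold higher level. Sphk1 was the 1 member of 5 past an adjusted p of 0.05 in this comparison, where 0.433% of all probes passed, and the 1 member whose groups did not overlap, which held for 3.37% of all probes. It did not pass with median centring in place of loess or with only the compared groups in the fit.

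After 6 weeks of smoke the difference was smaller and turned on 1 array. Sphk1 was at 1.05, 1.48, 1.24, 1.10 and 1.49 in 6 week smoke, against 0.73, 1.62, 0.96, 1.04 and 0.97 in 6 week sham. The groups overlapped through the array labelled 6 week sham replicate 2 alone, since all 5 smoke arrays lay above the 4 other sham arrays. That margin was narrow, with the lowest smoke array at 1.048 and the highest of these sham arrays at 1.045. The share of all probes without overlap once that array is left out was not computed. The means were 1.27 ± 0.21 in 6 week smoke and 1.07 ± 0.33 in 6 week sham (SD, n = 5 each). Without that array the sham mean was 0.93 ± 0.14 (SD, n = 4). The fitted difference was 0.20 (SE 0.11, 95% interval -0.04 to 0.43) with all arrays and 0.32 (SE 0.10, 95% interval 0.12 to 0.52) without it. No member passed an adjusted p of 0.05 here, where 0.0626% of all probes passed, and no member's groups were without overlap, which held for 0.849% of all probes. The smoke difference at 12 weeks exceeded that at 6 weeks by 0.42 (95% interval 0.08 to 0.75), and by 0.28 (95% interval -0.01 to 0.56) without the array in doubt. No member and 0% of all probes passed the threshold for that difference between durations (854 at an unadjusted p under 0.05).

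**Figure D1:**
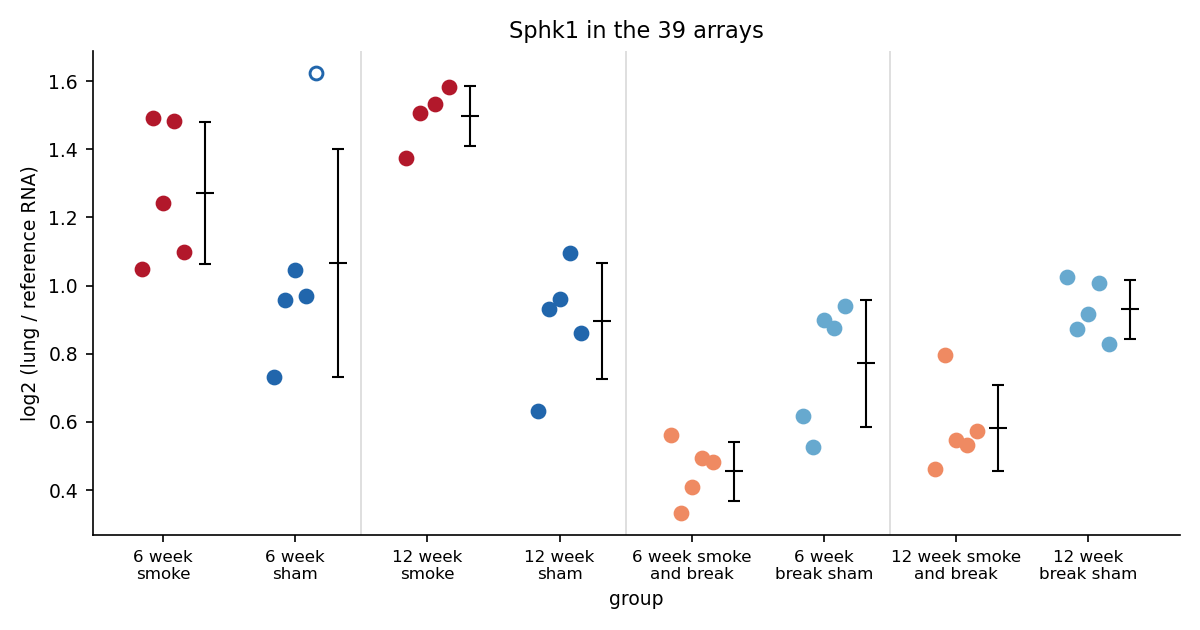
Log2 ratio of Sphk1 (lung over reference RNA) on each array by group; bars are the mean and SD, and the open circle is the array labelled 6 week sham replicate 2. The 12 week smoke arrays (1.37 to 1.58) lie above the 12 week sham arrays (0.63 to 1.10), and the 12 week smoke and break arrays (0.46 to 0.80) lie below the 12 week break sham arrays (0.83 to 1.03).

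After the break the sign of the difference was the opposite. In the 12 week groups Sphk1 was at 0.46, 0.53, 0.80, 0.55 and 0.57 in smoke and break, against 1.03, 1.01, 0.92, 0.87 and 0.83 in break sham. The groups did not overlap, and all 5 smoke and break arrays lay below all 5 break sham arrays. The means were 0.58 ± 0.13 in 12 week smoke and break and 0.93 ± 0.09 in 12 week break sham (SD, n = 5 each), and the fitted difference was -0.35 (SE 0.11, 95% interval -0.58 to -0.12), a 1.27-fold lower level. No member passed an adjusted p of 0.05, nor did any other probe (0% called, with 1129 probes at an unadjusted p under 0.05). Sphk1 was the 1 member without overlap, which held for 0.757% of all probes.

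In the 6 week groups Sphk1 was at 0.56, 0.49, 0.33, 0.41 and 0.48 in smoke and break, against 0.62, 0.88, 0.53, 0.90 and 0.94 in break sham. The highest smoke and break array lay above the lowest break sham array, so these groups overlapped. The means were 0.46 ± 0.09 in 6 week smoke and break and 0.77 ± 0.19 in 6 week break sham (SD, n = 5 each). The fitted difference was -0.32 (SE 0.11, 95% interval -0.55 to -0.09). Again no member and 0% of all probes passed an adjusted p of 0.05 (758 probes at an unadjusted p under 0.05), and no member was without overlap (0.49% of all probes).

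Set against each other, the smoke difference and the difference after the break were 0.96 apart for Sphk1 at 12 weeks (SE 0.17, 95% interval 0.62 to 1.30) and 0.51 apart at 6 weeks (SE 0.16, 95% interval 0.18 to 0.84). Without the array labelled 6 week sham replicate 2 they were 0.95 and 0.64 apart. At 12 weeks Sphk1 was the 1 member past an adjusted p of 0.05, beside 0.0683% of all probes, and with median centring in place of loess it did not pass. At 6 weeks no member and 0% of all probes passed (1149 at an unadjusted p under 0.05).

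**Figure D2:**
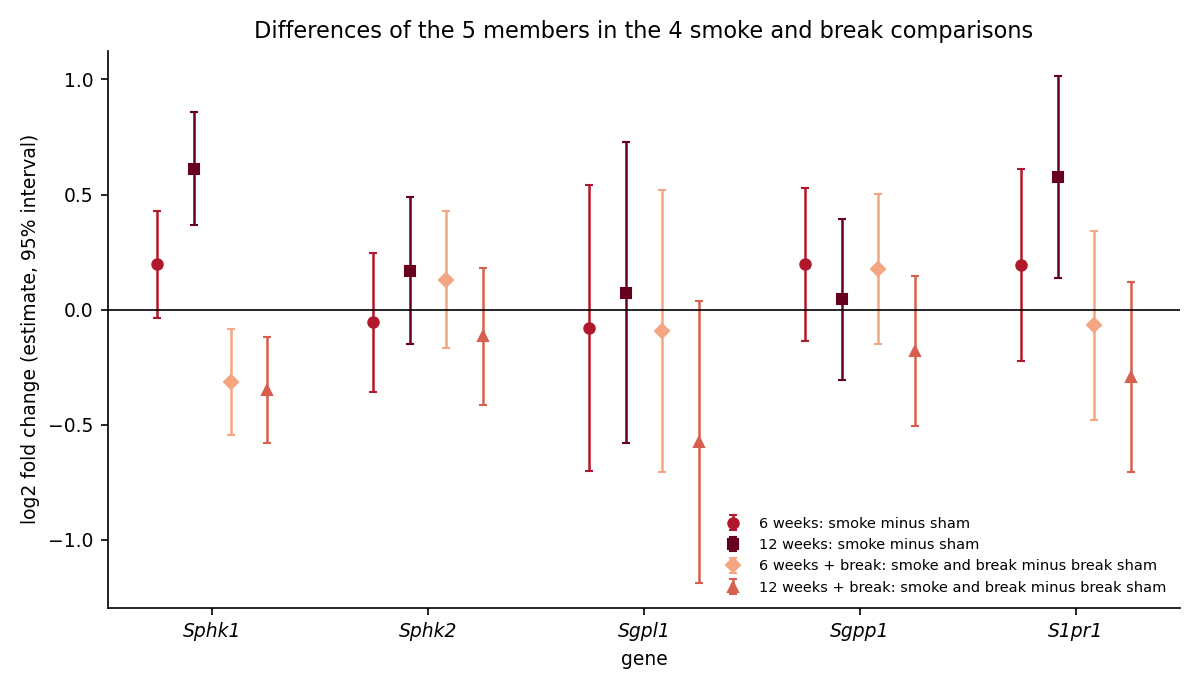
Fitted log2 fold changes of the 5 members in the smoke and break comparisons, with 95% intervals from the limma fit. For Sphk1 the 12 week smoke interval (0.37 to 0.86) lies above 0 and both break intervals (-0.55 to -0.09 and -0.58 to -0.12) lie below it.

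The Sphk1 differences were also taken within the 5 runs of exposure dates, each of which held arrays of most groups. Smoke exceeded sham in 4 of 4 runs at 12 weeks, by 0.49 to 0.74. At 6 weeks it did so in 3 of 4 runs, and the fourth, at -0.20, held the array labelled 6 week sham replicate 2; without it the difference in that run was 0.13. After the break, smoke and break lay below break sham in each of the 5 runs, with differences of -0.49 to -0.06 at 6 weeks and of -0.57 to -0.08 at 12 weeks. At 12 weeks the groups did not overlap in either comparison, so the signs there were fixed beforehand and only the sizes add to the description. The 6 week groups after the break overlapped only between 0.56 (smoke and break, run 1) and 0.53 (break sham, run 2). These lay in different runs, so the signs within runs were fixed there too. The same held at 6 weeks of smoke without the array in doubt, where all smoke arrays lay above the other sham arrays.

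**Figure D3:**
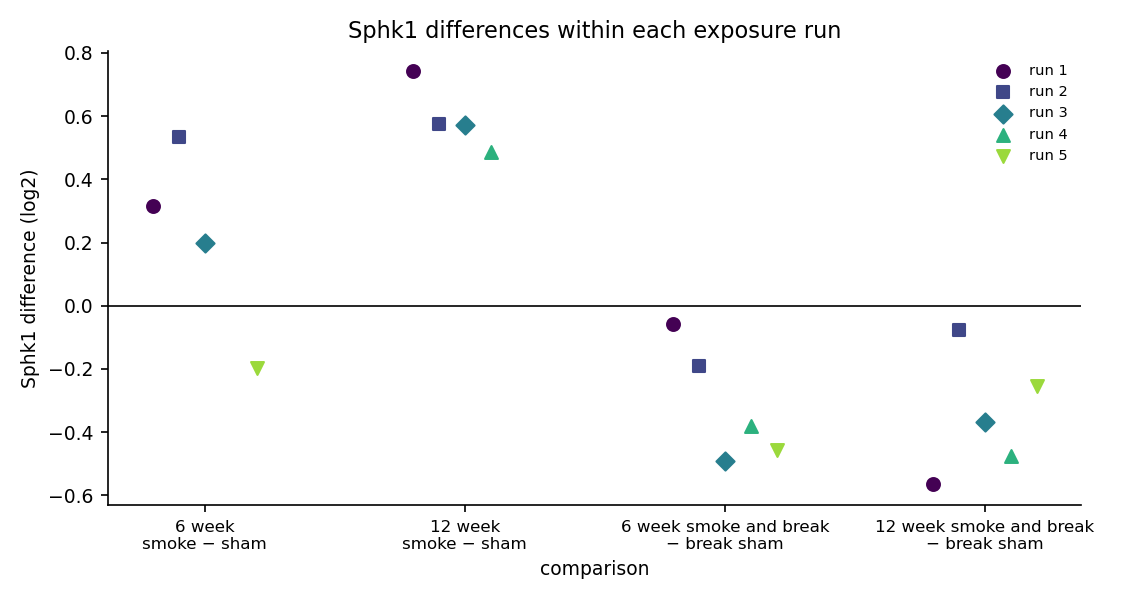
Sphk1 difference (log2) between exposed and sham arrays within each run of exposure dates, 1 point per run and comparison. The 12 week smoke points lie between 0.49 and 0.74, and all 10 points after the break lie below 0. The signs of the 12 week points follow from groups that did not overlap.

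In order of their means, the Sphk1 levels ran from 12 week smoke (1.498) through 6 week smoke (1.27), 6 week sham (1.07), 12 week break sham (0.93), 12 week sham (0.90), 6 week break sham (0.77) and 12 week smoke and break (0.58) to 6 week smoke and break (0.46). Each group overlapped in range with its neighbours in that order, 6 week smoke and 6 week sham only through the array in doubt. Without that array the mean of 6 week sham was 0.926, just below 12 week break sham at 0.93. Between the sham groups, 6 week break sham minus 6 week sham gave a fitted difference of -0.31 (95% interval -0.54 to -0.07), or of -0.18 (95% interval -0.38 to 0.02) without it. At 12 weeks the break sham and sham groups differed by 0.03 (95% interval -0.20 to 0.26).

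Of the marker lists, that of macrophages had the largest median difference in the same smoke comparisons. It was 0.58 at 6 weeks, with 12 of 12 markers above 0 and none past an adjusted p of 0.05, and 0.67 at 12 weeks, with 11 of 12 above 0 and 1 past it, the protease gene Ctsd. The mean level of the list ranged from 0.97 to 1.72 in 6 week smoke and from 0.39 to 0.89 in 6 week sham, and from 0.99 to 1.31 in 12 week smoke and from 0.32 to 0.89 in 12 week sham. The 6 week sham range holds the array in doubt, so on this list that array lay below every 6 week smoke array. The 6 week differences of the marker lists were not computed without it. Heart muscle markers had a median difference of 0.39 at 6 weeks and 0.40 at 12 weeks, with 6 of 6 above 0 both times and none past the threshold. Fibroblast markers were at -0.02 and -0.25, with 1 of 8 above 0 at 12 weeks and the collagen gene Col3a1 past the threshold. Liver markers were at -0.43 and 0.02, over 4 genes. The macrophage list holds Lgals3, Ctsd, Atp6v0d2 and Chil3 (Chi3l3 in the study), and the fibroblast list Col3a1. The study had reported all of these as changed by smoke on the same arrays. Since the lists were chosen with earlier results known, their differences are a description. The part of these lists in the Sphk1 difference under smoke was not tested. After the break, where Sphk1 was lower than in break sham, the median difference of the macrophage list was -0.04 at 6 weeks and 0.03 at 12 weeks.

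The genes whose pattern was most like that of Sphk1 were taken by Pearson's r over the 39 arrays with run means removed. They were Osgin1 (r = 0.90), Cyp1a1 (r = 0.82), Hmox1 (r = 0.81), Srxn1 (r = 0.81) and Map3k6 (r = 0.81). Osgin1 is an oxidative stress-induced growth inhibitor, Hmox1 encodes heme oxygenase 1, and Srxn1 encodes sulfiredoxin, which reactivates oxidised peroxiredoxins. Arrays with and without current smoke form separate clusters, which these values span, and r over all arrays is given as a description. Over the 29 arrays without current smoke, the array in doubt left out, r with Sphk1 was 0.68 for Osgin1, 0.50 for Hmox1 and for Map3k6, 0.33 for Cyp1a1 and 0.19 for Srxn1. Between Sphk1 and the other members r was at most 0.25.

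Osgin1 was picked for its likeness to Sphk1 on these arrays, so its values are a description of that likeness. At 12 weeks it was at 2.30, 2.00, 1.95 and 1.63 in smoke, against 0.86, 0.83, 0.64, 0.82 and 1.02 in sham, a fitted difference of 1.17 (SE 0.17). After the break the 12 week arrays were at 0.22, 0.15, 0.24, 0.31 and 0.21 in smoke and break, against 0.59, 0.61, 0.51, 0.38 and 0.52 in break sham. The groups did not overlap in either comparison, and the fitted difference after the break was -0.29 (SE 0.16). For Srxn1 and Hmox1, picked in the same way, the 12 week smoke differences were 1.67 and 2.05, and those after the 12 week break were -0.10 and -0.13.

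**Figure D4:**
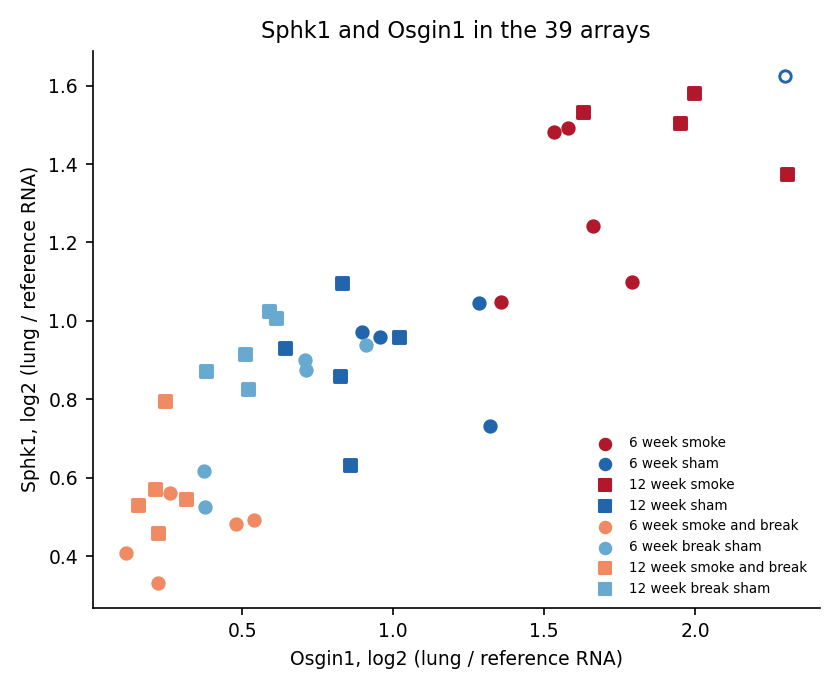
Log2 ratios (lung over reference RNA) of Sphk1 against Osgin1 on the 39 arrays, coloured by group; circles are 6 week and squares 12 week groups, and the open circle is the array labelled 6 week sham replicate 2. Pearson's r was 0.90 over all arrays with run means removed and 0.68 over the 29 arrays without current smoke.

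Sphk1 is shown with promoter sequence because Osgin1, Cyp1a1, Hmox1, Srxn1 and Map3k6 were the genes most like it over all arrays. On the arrays without current smoke r was lower for each of them. Whether these genes share a regulator was not tested. RefSeq promoter windows, 250 bases before to 50 after a transcript start on build GRCm38.p6, were searched on both strands for the antioxidant response element core TGACNNNGC, the AP-1 site TGANTCA and the xenobiotic response element core GCGTG. Of the 5 Sphk1 windows, which overlap in part, 2 held all 3 motifs, through the same antioxidant response element and AP-1 matches, and all 5 held a xenobiotic response element core. The first of the 2 by position is shown, with the matches in capitals. It lies at chr11:116531587-116531886 on the plus strand and is written 5′ to 3′.
Sphk1 promoter: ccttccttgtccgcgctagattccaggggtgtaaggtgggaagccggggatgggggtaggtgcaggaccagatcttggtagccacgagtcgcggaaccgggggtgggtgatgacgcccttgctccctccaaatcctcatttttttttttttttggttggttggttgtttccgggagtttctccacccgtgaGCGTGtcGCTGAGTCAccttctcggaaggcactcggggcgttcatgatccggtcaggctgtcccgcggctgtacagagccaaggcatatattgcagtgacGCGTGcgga
The longest run in capitals, GCTGAGTCA, is 1 match to the antioxidant response element core read on the minus strand, and its last 7 bases are the AP-1 match, so the 2 matches overlap. Both runs of GCGTG are xenobiotic response element cores. Among all 32851 windows, 12.4% held an antioxidant response element core, 7.81% an AP-1 site and 32.4% a xenobiotic response element core. Counted by gene, with a match in any window, the shares were 14.0%, 8.97% and 35.2%. These shares are not matched for the number of windows, and Sphk1, with 5, had more room for a match than a gene with 1. Neither of the first 2 motifs was found in the windows of Sphk2, Sgpl1 and Sgpp1, and the third was found in those of Sphk2 and Sgpp1. Of the genes most like Sphk1, the window of Srxn1 held all 3 motifs, that of Osgin1 the AP-1 site and the xenobiotic response element core, and those of Cyp1a1 and Map3k6 the xenobiotic response element core alone. S1pr1 and Hmox1 were not searched. A match of letters is a description of the sequence, and binding was not measured.

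Sphk2, the other sphingosine kinase, which is found largely in the nucleus and mitochondria, showed no difference beyond its spread. At 12 weeks it was at -0.11, -0.27, -0.10 and -0.19 in smoke, against -0.31, -0.30, -0.53, -0.32 and -0.14 in sham. The groups overlapped, and the fitted difference was 0.17 (95% interval -0.15 to 0.49). The other differences were -0.05 (95% interval -0.36 to 0.25; also -0.05 without the array in doubt) for 6 week smoke, 0.13 (95% interval -0.17 to 0.43) for 6 week smoke and break and -0.12 (95% interval -0.41 to 0.18) for 12 week smoke and break. At 12 weeks of smoke its interval overlapped that of Sphk1 (0.37 to 0.86) in the same arrays, and the difference between the kinases was not tested. The Sphk2 probe was also the dimmer, at 1.90 to 10.4 times background against 24.4 to 109.2 for Sphk1.

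Sgpl1, the lyase that cleaves S1P irreversibly, was too dim for most comparisons. Its levels in 12 week smoke and break were -2.90, -0.61, -0.54, -0.64 and -0.59, against -0.82, -0.24, -0.52, -0.39 and -0.46 in 12 week break sham. The groups overlapped, and 1 array decided the difference: it was -0.57 (95% interval -1.19 to 0.04) with 12 week smoke and break replicate 1 and -0.09 without it. On that array the Sgpl1 spot had a Cy3 signal of 5075, against at most 1722 on the 38 other arrays, so the low ratio came with a bright reference channel. Its Cy5 signal there, 1198.5, was also the highest of all arrays, and the spot was not marked. In 6 week smoke Sgpl1 ranged from -0.65 to -0.20 and in 6 week sham from -0.82 to 0.54. The fitted difference was -0.08 (95% interval -0.70 to 0.54), and it was 0.24 without 6 week sham replicate 1 and -0.15 without replicate 2. At 12 weeks of smoke it was 0.07 (95% interval -0.58 to 0.73) and after the 6 week exposure with break -0.09 (95% interval -0.71 to 0.52).

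Sgpp1, the phosphatase that returns S1P to sphingosine, varied with the run of exposure dates more than with the groups. The run accounted for 44.9% of its variance. Run 1 also held the brightest arrays for this probe, with a Cy5 signal of 532 to 1606 against 152 to 794.5 in the other runs. The part of array brightness in the run share was not tested. Its levels ranged from -0.64 to 0.23 in 6 week smoke and from -1.07 to 0.37 in 6 week sham, and from -0.59 to 0.00 in 12 week smoke and from -0.39 to -0.16 in 12 week sham. All of these groups overlapped. The fitted differences were 0.20 (95% interval -0.13 to 0.53; also 0.20 without the array in doubt) for 6 week smoke, 0.04 (95% interval -0.31 to 0.39) for 12 week smoke, 0.18 (95% interval -0.15 to 0.50) for 6 week smoke and break and -0.18 (95% interval -0.51 to 0.15) for 12 week smoke and break. With the marked spots left out, the 6 week smoke difference was 0.48.

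S1pr1, the S1P receptor of endothelial cells and lymphocytes, was higher in 12 week smoke than in 12 week sham, and the sham group was the one that stood apart. It was at 0.79, 1.15, 0.55 and 1.09 in 12 week smoke, against 0.65, 0.16, 0.04, 0.17 and 0.34 in 12 week sham. The groups overlapped by 1 array on each side, and the fitted difference was 0.57 (SE 0.22, 95% interval 0.14 to 1.01), short of the adjusted threshold. Over the alternatives other than leaving out an array it lay between 0.36, with spot means, and 0.68, and passed in none. The sham values of 0.16 and 0.17 came from spots at 1.47 and 1.79 times background, the other sham values from spots at 4.77 to 7.28 times. S1pr1 averaged 0.89 ± 0.28 over the 4 smoke arrays and 0.27 ± 0.23 over the 5 sham arrays (mean ± SD), while every other group had a mean between 0.60 and 0.93.

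The 12 week break sham arrays had S1pr1 at 0.98, 0.93, 0.83, 0.73 and 1.18, all above the 12 week sham arrays. The fitted difference between these sham groups, neither of which was given smoke, was 0.66 (95% interval 0.25 to 1.07). No member passed an adjusted p of 0.05 in that comparison, beside 0.0228% of all probes, and S1pr1 was the 1 member without overlap, which held for 1.18% of all probes. S1pr1 in 12 week sham was also lower than in 6 week sham, with a fitted difference of -0.43 (95% interval -0.85 to -0.01).

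In the other comparisons S1pr1 differed by 0.19 (95% interval -0.23 to 0.61; 0.17 without the array in doubt) for 6 week smoke, -0.07 (95% interval -0.48 to 0.34) for 6 week smoke and break and -0.29 (95% interval -0.71 to 0.12) for 12 week smoke and break. Endothelial markers had a median difference of 0.16 after 12 weeks of smoke, with 11 of 12 above 0 and none past the threshold. Their mean level ranged from 3.14 to 3.90 in 12 week smoke and from 2.78 to 3.56 in 12 week sham. Their median difference was 0.18 for 12 week break sham minus 12 week sham (8 of 12 above 0). For 12 week sham minus 6 week sham, with the array in doubt kept, it was -0.39 (1 of 12 above 0). For alveolar type II markers these differences were 0.24 (5 of 8 above 0) and -0.30 (1 of 8 above 0). A lower level in 12 week sham was thus not particular to S1pr1. The part of these markers in the S1pr1 differences was not tested.

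**Figure D5:**
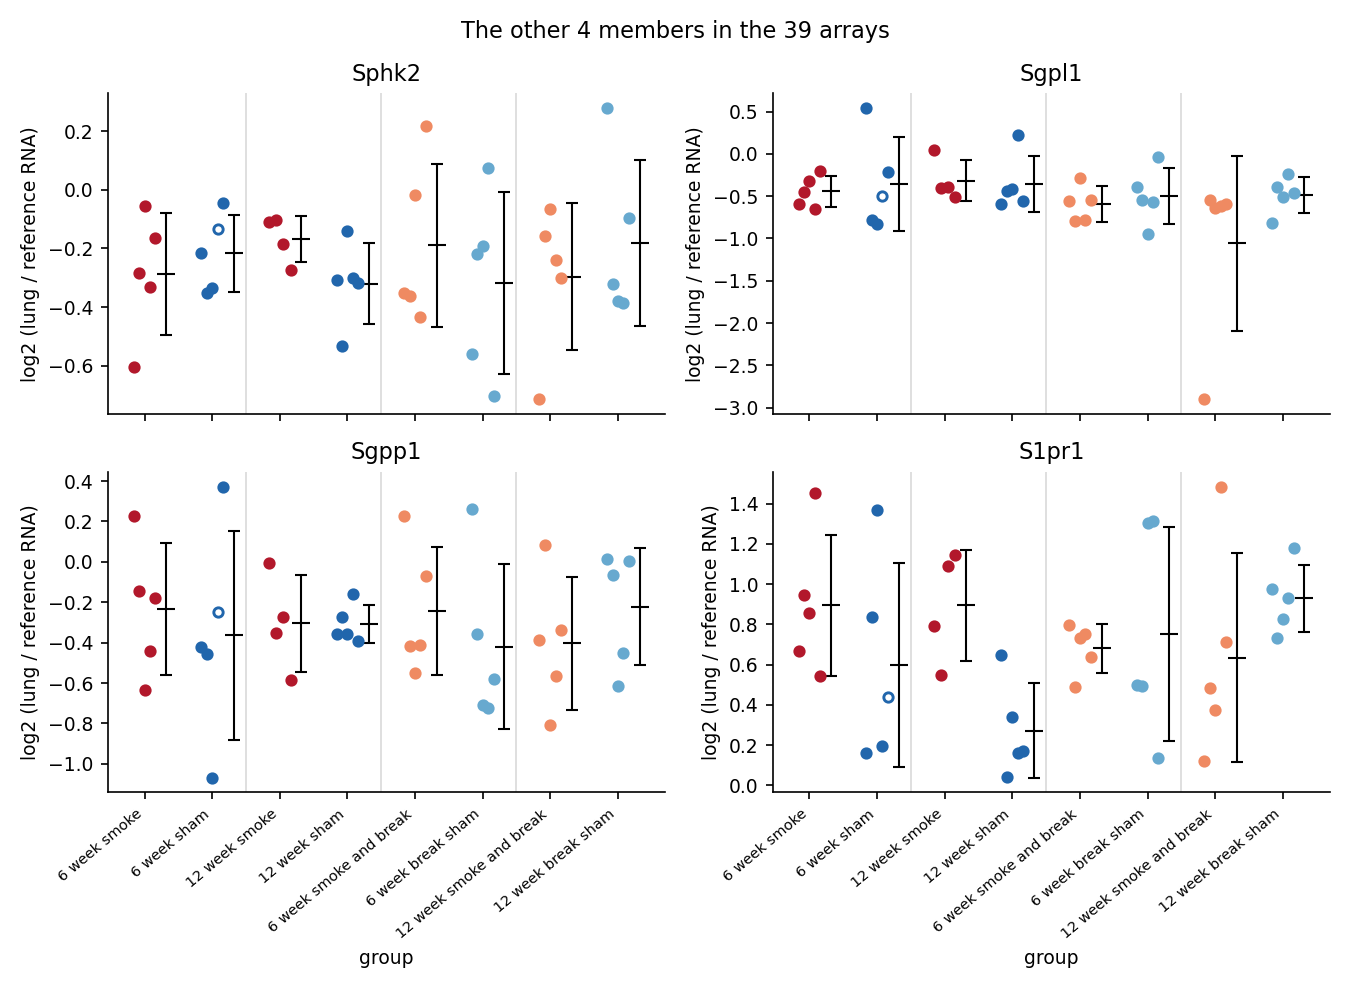
Log2 ratios (lung over reference RNA) of Sphk2, Sgpl1, Sgpp1 and S1pr1 on each array by group; bars are the mean and SD, the open circle is the array labelled 6 week sham replicate 2, and each panel has its own scale. The Sgpl1 panel shows the single array at -2.90, and the S1pr1 panel shows 12 week sham (0.04 to 0.65) below 12 week break sham (0.73 to 1.18).

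The genes most like each of the other members had lower r than Osgin1 had with Sphk1, over the same 39 arrays. For Sphk2 they were Acsbg3, Apeh, Hus1, Rmnd5b and Serpinb12 (r = 0.59 to 0.63). For Sgpl1 they were Tbc1d16, Plcl1, Tmem150a, Usp37 and Olfr701 (r = 0.72 to 0.79), for Sgpp1 Tmem123, Maea, Cd33, Reep5 and Phospho2 (r = 0.61 to 0.65), and for S1pr1 Plet1, Zbtb46, Tmod1, Arhgef16 and Pebp1 (r = 0.65 to 0.73). Between any pair of members r was at most 0.29, that of Sphk2 and S1pr1.

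Genes around the members were followed through 10 lists with 76 genes of the sphingolipid and S1P pathways, of which 67 were on the array and 60 passed the filter. None of the 60 rose or fell at an adjusted p of 0.05 (limma) in any of the 4 smoke and break comparisons. At an unadjusted p under 0.05 there were 8 after 6 weeks of smoke, 5 after 12 weeks, and 3 after each break, or 13.3%, 8.33% and 5% of the 60, beside 8.41%, 9.37%, 4.32% and 6.43% of all probes in the 4 comparisons. Their median difference was 0.03 for 6 week smoke (0.02 without the array in doubt), -0.01 for 12 week smoke, 0.01 for 6 week smoke and break and 0.02 for 12 week smoke and break, against 0.01, 0.01, 0.00 and 0.01 over all probes. The other S1P receptors, S1pr2 to S1pr5, lay near 0 after 6 weeks of smoke, the largest difference being 0.18 for S1pr3 (limma adjusted p = 0.849), or 0.19 without the array labelled 6 week sham replicate 2. After 12 weeks the largest was 0.49 for S1pr4, a receptor of blood and immune cells (limma adjusted p = 0.474).

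The closest to a call was Kdsr, the reductase of the second step of sphingoid base synthesis. It was at 0.95, 0.77, 0.89, 0.77 and 1.19 in 6 week smoke, against 0.48, -0.12, 0.70, 0.72 and 0.34 in 6 week sham. The groups did not overlap, and the fitted difference was 0.47 (SE 0.10, limma adjusted p = 0.0728). The lowest sham value was that of the array labelled 6 week sham replicate 2, and without it the difference was 0.37 (limma adjusted p = 0.103). At 12 weeks Kdsr was at 1.02, 0.79, 0.80 and 1.02 in smoke, against 0.35, 0.63, 0.84, 0.28 and 0.48 in sham, and the groups overlapped by 1 sham array. The fitted difference was 0.35 (limma adjusted p = 0.199), and after the break the differences were 0.00 at 6 weeks and -0.03 at 12 weeks.

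The ceramidases, which release sphingosine from ceramide, had a median difference of 0.09 after 6 weeks of smoke, with 5 of 6 above 0, and of 0.10 after 12 weeks, with 6 of 6 above 0. The largest were 0.42 for Asah1, the acid ceramidase (limma adjusted p = 0.476), at 6 weeks and 0.33 for Acer2, an alkaline ceramidase (limma adjusted p = 0.676), at 12 weeks. The ceramide synthases measured were led by Cers4, at -0.49 (limma adjusted p = 0.409) after 6 weeks of smoke and -0.25 (limma adjusted p = 0.764) after 12 weeks. Among exporters and carriers, Apom, the S1P carrier of lipoproteins, was at -0.55 (limma adjusted p = 0.821) after 6 weeks, and Spns2, the endothelial S1P exporter, at -0.31 (limma adjusted p = 0.851) after 12 weeks. Of the other phosphatases, Plpp1 had the largest difference at both times, 0.20 and 0.22. Without the array labelled 6 week sham replicate 2, 4 of 6 ceramidases lay above 0 at 6 weeks, with a median of 0.06, and the 6 week differences were 0.34 for Asah1, -0.53 for Cers4, -0.64 for Apom and 0.29 for Plpp1. None passed the threshold with or without it.

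The remaining lists had no call either. In sphingomyelin turnover the largest differences were -0.39 for the sphingomyelinase Smpd2 (limma adjusted p = 0.559) at 6 weeks and 0.29 for Smpdl3b (limma adjusted p = 0.784) at 12 weeks. Without the array labelled 6 week sham replicate 2, Smpd2 was at -0.27 and the largest at 6 weeks was Smpdl3b, at 0.41 (limma adjusted p = 0.565). In ceramide kinase, transfer and glycosylation, where 0 of 12 genes lay above 0 at 12 weeks of smoke, Gltp, the glycolipid transfer protein, led with -0.25 and -0.28. Kinase binding partners were led by Sphkap at -0.18 and Eef1a1 at 0.29, and the lysophosphatidic acid receptors by Lpar2 at -0.15 and Lpar1 at 0.24, at 6 and 12 weeks of smoke. Without the array in doubt, Gltp was at -0.34 and Sphkap at -0.23 at 6 weeks, and the lysophosphatidic acid receptors were led by Lpar1 at 0.11, with Lpar2 at -0.09. Sptlc3, a subunit of serine palmitoyltransferase, had the largest difference of the synthesis list at 12 weeks, -0.35 (limma adjusted p = 0.839). None of these differences passed the threshold.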

How the data were processed

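Scanner files with 1 file per dye, read from the deposited data, gave median spot and background intensity for 22575 spots per array, and the deposited value table gave the authors' normalized log2 ratios, used as an alternative. Per the study's methods the arrays were quantified in ImaGene and normalized with MAANOVA in R, a design blocked on hybridization and exposure dates was used, and 1 outlying array was removed, so that 39 arrays remained. Here intensities were background corrected (normexp, offset 50), normalized by within-array loess (control spots given a weight of 0) and averaged over the spots of a probe, in limma 3.58.1 (R 4.3.3).

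Probes were kept where the Cy5 signal exceeded the trimmed mean (5%) plus 3 trimmed SDs of the negative control probe on at least 4 arrays of 1 group, which left 17560 of 20868 gene probes. A linear model with a term for each group and a fixed block for the 5 runs of consecutive exposure dates was fitted to all kept probes, with empirical Bayes moderation and Benjamini-Hochberg adjustment over all of them at 0.05. Replicates were numbered in accession order and came from 1 mouse each. Intervals cover 95%. The fit was tested on simulated data. Gene symbols came from the platform annotation. Of the probes, 18235 had 1 symbol, 30 had several and 2603 had none.

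The members and gene lists were chosen with earlier results of these data known. Named genes were the members, the list genes past the threshold, the gene with the largest difference of each list under smoke, and the 5 genes most like each member, and Cyp1a1 and Cyp1b1 as a check of the labels. The number of arrays limits the precision, and for dim probes so does the signal over background. Alternatives covered background correction, normalization, filters, block, weights and leaving out each array.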

Additional observations from a re-analysis of the deposited data

Results flagged for a closer look

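Each member's group values were checked for a single array with a wide gap to the rest, and 2 of 40 groups had one, both for Sgpl1, the dimmest member. Chance alone marks about 1 in 20 groups. In 12 week smoke and break, replicate 1 was at -2.90, with the other arrays between -0.64 and -0.54. In 12 week sham, replicate 2 was at 0.23, with the other arrays between -0.59 and -0.42.

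For Sphk1 the difference between smoke and sham at 12 weeks was compared directly with the difference between smoke and break and break sham. They were 0.96 apart on the log2 scale, past the adjusted threshold in the limma fit, though not with median centring in place of loess. Sphk1 was among the genes chosen with this result known.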

How the results depend on the processing

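Over the alternatives other than leaving out an array, the Sphk1 difference lay between 0.18 and 0.31 for 6 week smoke, 0.50 and 0.63 for 12 week smoke, -0.41 and -0.29 for 6 week smoke and break, and -0.35 and -0.24 for 12 week smoke and break, with the same sign each time. Leaving out 1 array gave 0.13 to 0.32, 0.57 to 0.64, -0.38 to -0.28 and -0.41 to -0.28. The count of members past the threshold for 12 week smoke fell to 0 with median centring in place of loess (Sphk1 at 0.50, limma adjusted p = 0.155) and to 0 with only the compared groups in the fit (Sphk1 at 0.59, limma adjusted p = 0.267). The adjusted p of Sphk1 there lay between 0.00118 and 0.267 over these alternatives, and between 0.000599 and 0.0409 when 1 array was left out. Median centring brought the Sphk1 gap between the smoke difference and that after the break to 0.72 at 6 weeks and 0.74 at 12 weeks, where it no longer passed the threshold (limma adjusted p = 0.154, with 0.00143 to 0.154 over these alternatives), and the gap between durations to 0.19. It moved the median of all probes by up to 0.11. Kdsr passed the threshold for 6 week smoke under median centring and with marked spots left out, and under none of the other alternatives. Of 721 values of members under alternatives, 711 stayed within 1 residual SD and none of those past the threshold changed sign. Over all probes, calls ranged from 0 to 26 for 6 week smoke, against 11 in the fit described, and from 11 to 203 for 12 week smoke, against 76, the lowest with only the compared groups and the highest for 12 weeks with array weights. Leaving out 1 array gave 7 to 33 and 44 to 91 calls. A block by slide or scan was not run, since the scanner headers used here name no slide or scan time. No paired analysis was possible because the replicate numbers follow accession order. The runs of exposure dates, which tie arrays of different groups together, are the block in the fit and gave the within-run differences. Signals near background limit Sgpl1, and the cause of the changes under these settings was not tested.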
